A study of Mus musculus with 20 samples.

Results

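The cortex of 5 Ube3aOE mice was compared with the cortex of 5 WT mice at postnatal day 7 (P7) across all genes. The comparison holds 10 of the 20 libraries of the series, which were chosen by the genotype and the tissue in the sample labels, and the other 10 are the hippocampi of the same mice. The question was whether additional copies of Ube3a change the transcription of other genes in the developing brain. All mice were C57Bl/6J and had their own Ube3a gene, and 1 mouse gave 1 stranded mRNA library of the whole dissected cortex. Ube3aOE mice carry, besides, a floxed bacterial artificial chromosome transgene that holds the mouse Ube3a gene and its flanking sequence on both sides, so no foreign or cell-type promoter drives it. The study's text calls the sequenced transgenic mice Ube3a+2, and the labels do not give a transgenic line or a copy number.

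UBE3A is a HECT-type E3 ubiquitin ligase, which attaches ubiquitin to other proteins and thereby marks many of them for the proteasome. It has also been described as a coactivator of transcription. In neurons Ube3a is read from the maternal allele while the paternal allele is silenced, its loss causes Angelman syndrome, and duplications of the region that holds it cause Dup15q syndrome. A cortex at P7 is still being wired: neurons are extending axons and forming synapses, glia are multiplying and myelin is only beginning to form. A bulk library adds all of these cells, so fewer cells of a type and less RNA per cell cannot be told apart.

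Each library held between 14191093 and 16477585 reads counted on genes, and between 20377 and 20956 genes had a count. Tbr1, a defining transcription factor of cortical neurons, was present at a mean CPM (counts scaled to the library total) of 109.9 in WT mice. The cortex library of WT mouse 2 had the smallest total and the smallest share of reads on genes, 69.7% against 76.0% to 80.1% in the other 9. In 2 of the 5 WT mice, mice 3 and 5, the counts of the X-linked Xist and of the Y-linked Ddx3y, Eif2s3y, Kdm5d and Uty went against the labelled sex. Sex was not part of the main fit, since the study's text states no covariate for this comparison. Nothing in the labels states a batch or a date.

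The 250 bases just upstream of the annotated start of Ube3a are shown because the transgene was built with the gene's own upstream sequence. The counts of Ube3a add transcripts of the endogenous gene and of the transgene. They lie on the plus strand of chromosome 7 at chr7:59228500-59228749 of GRCm38 (sequence from RefSeq), and capitals mark GGGCGG, the GC box letters, searched on both strands.
Ube3a upstream: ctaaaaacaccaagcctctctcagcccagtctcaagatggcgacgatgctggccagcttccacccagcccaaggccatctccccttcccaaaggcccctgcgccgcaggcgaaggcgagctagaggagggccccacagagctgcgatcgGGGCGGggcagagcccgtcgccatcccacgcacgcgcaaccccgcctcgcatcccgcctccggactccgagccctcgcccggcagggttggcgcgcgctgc
These letters occur 1 time in this stretch and at least once in the same stretch of 32.7% of all 32851 RefSeq promoters. The stretch holds 24 CG dinucleotides, while the median promoter holds 6.

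Ube3a itself checks the genotype labels. After scaling by library totals with edgeR's TMM factors, it stood at 57.6, 53.1, 68.6, 59.0 and 60.6 CPM in WT mice 1 to 5. In Ube3aOE mice 6 to 10 it stood at 133, 127, 178, 128 and 178 CPM. The groups did not overlap, and mice 8 and 10 lay above the other Ube3aOE mice. The mean was 59.8 ± 5.67 CPM (SD, n = 5) in WT and 149 ± 26.9 CPM (SD, n = 5) in Ube3aOE cortex, which is 248.8% of WT (P = 0.00794 by an exact permutation of the mice, two-sided, a value that cannot be smaller with groups of 5). The log2 fold change was 1.31 with a 95% confidence interval from 1.07 to 1.56 (edgeR's quasi-likelihood test, adjusted P = 0.000822).

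**Figure D1:**
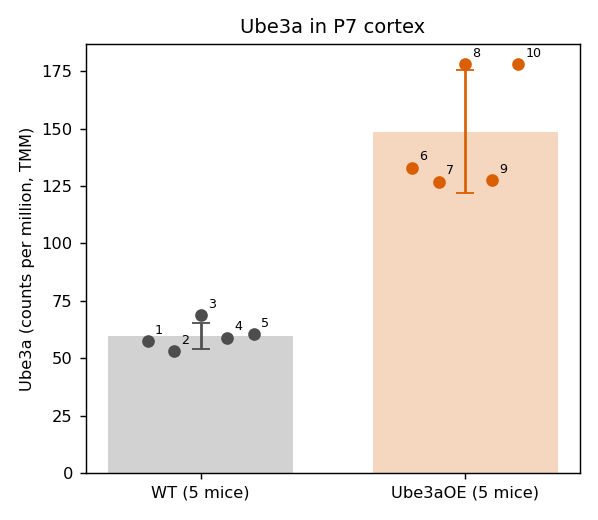
Ube3a in TMM-normalized CPM in each cortex library, with mouse numbers, bars at the group mean and error bars of 1 SD (n = 5 per group). The WT mice lie between 53.1 and 68.6 CPM and the Ube3aOE mice between 127 and 178 CPM.

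Ube3a was the only gene of 14947 tested that passed an adjusted P value of 0.05 (0.00669% of the genes tested), and the next smallest adjusted P value was 0.888. The log2 fold changes of all genes centred on 0.00, with quartiles of -0.06 and 0.08, and 51.4% were positive. Without adjustment, 371 genes (2.48%) were higher and 292 (1.95%) lower in Ube3aOE mice at a P value under 0.05. All 5 Ube3aOE mice lay above all 5 WT mice for 47 genes (0.314%) and below them for 58 (0.388%). The 95% interval of the log2 fold change lay inside the study's borders of -0.5 and 0.5 for 11038 genes (73.8%) and inside -0.25 and 0.25 for 6023 (40.3%). For the 9940 genes whose mean level reached 10 CPM, these shares were 93.9% and 60.2%.

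Gene programs were then described with 48 lists, which hold 1057 of the tested genes. None of these members passed the adjusted threshold. Without adjustment, 44 members (4.16%) were higher and 16 (1.51%) lower, beside 2.48% and 1.95% of all genes tested. The median log2 fold change of a list lay within 0.1 of zero for 32 lists and within 0.2 for 41. The mean level of a list was also computed for each mouse, as the average over its members of the log2 CPM minus the gene's mean over the 10 mice, and the range of the mice in 1 genotype overlapped that of the other for 47 of the 48 lists. The exception was the pair of mitochondrial ribosomal RNAs described further on. In every list, the distance from the lowest to the highest mouse was more than 2 times the difference between the genotype means, and in 26 lists more than 5 times.

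**Figure D2:**
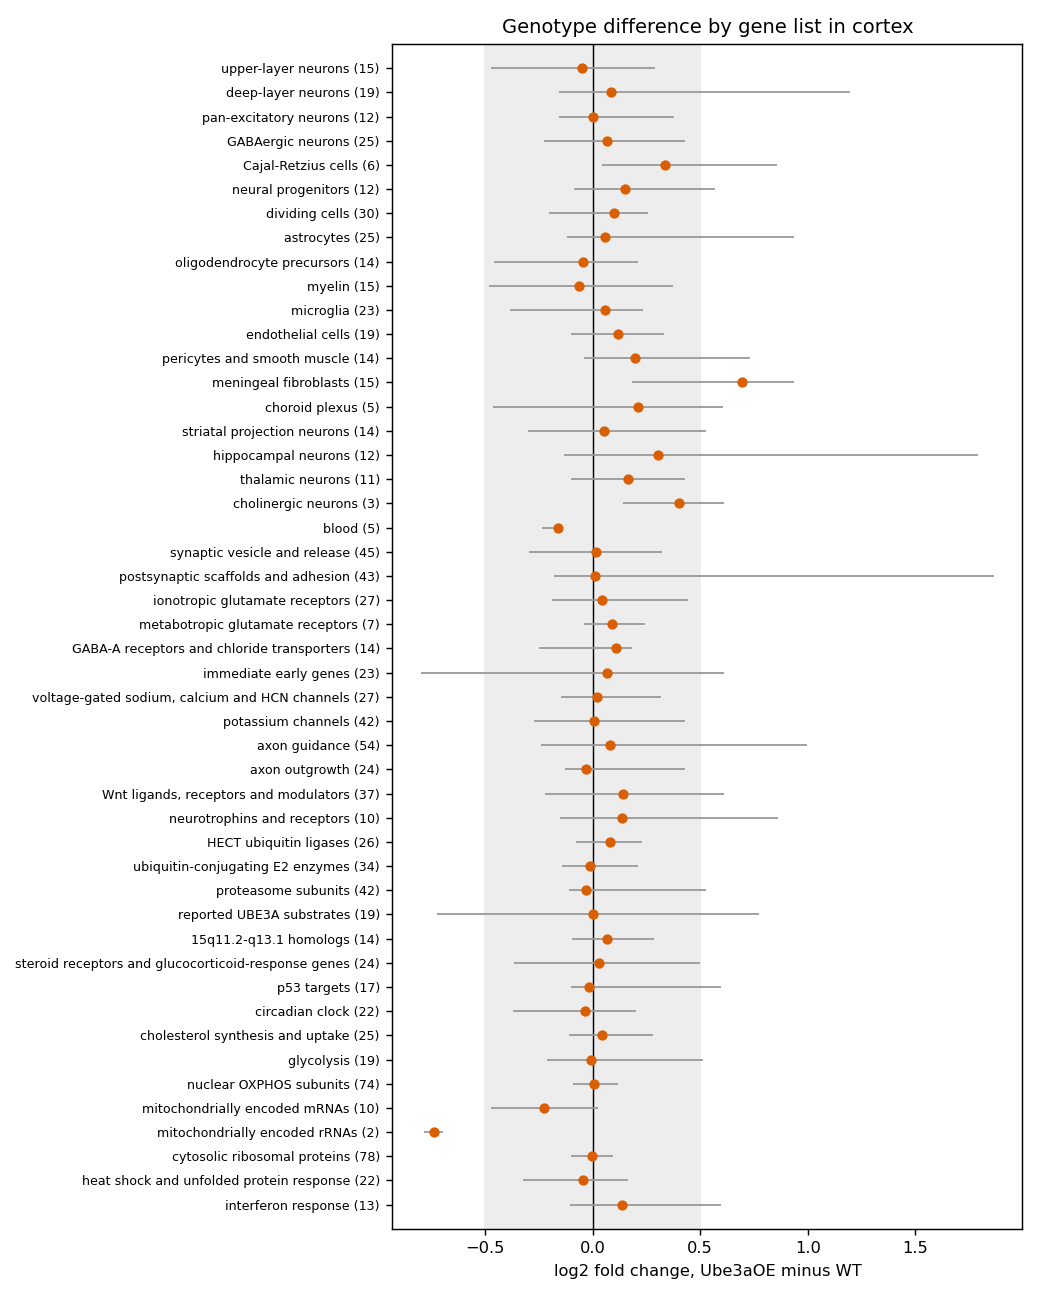
Median log2 fold change (points, Ube3aOE minus WT) and the range from the lowest to the highest member (lines) for 48 gene lists, with the number of tested members in brackets, the median of all genes as a vertical line and the study's borders of 0.5 shaded. Most medians lie near 0, and the farthest from it are the meningeal fibroblast markers at 0.70 and the mitochondrial rRNAs at -0.74.

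The lists of the machinery that works with UBE3A had medians within 0.1 of zero. The HECT ligases other than Ube3a had a median log2 fold change of 0.08 over 26 members, 19 positive. The interval lay inside the borders of 0.5 for all 26 and inside 0.25 for 13. Over all genes tested these shares were 73.8% and 40.3%, and 93.9% and 60.2% for genes of at least 10 CPM. At an unadjusted P value of 0.05, 0 of the 26 ligases passed. With the trend of each library on transcript length and GC content removed, their median was 0.02. The giant ligases were the members with the smallest P values: Huwe1 at 0.17 (standard error 0.08) and Herc1 at 0.23 (0.12). Herc2, a partner of UBE3A whose human homolog lies in the Dup15q region, had 0.20 (0.11). Without WT mouse 2 the median of the ligases was 0.04. Nedd4, the member with the highest level per kilobase of transcript, had a log2 fold change of 0.09 (0.06). The ubiquitin-conjugating E2 enzymes, which pass ubiquitin on to the ligases, had a median of -0.01, and 32 of 34 intervals lay inside 0.5. Of the 42 proteasome genes, 40 had an interval inside 0.25, with a median of -0.03. Psmd4, a ubiquitin receptor of the proteasome, was the member with the smallest P value, at 119 ± 4.96 CPM (SD, n = 5) in WT and 110 ± 5.22 CPM in Ube3aOE mice. Its log2 fold change of -0.11 did not pass (edgeR, adjusted P = 0.96).

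Transcripts of proteins that have been reported as UBE3A substrates had a median of 0.00 over 19 genes. One member was higher and one lower without adjustment: Kcnn2, a calcium-activated potassium channel, at 0.20 (standard error 0.09), and Psmd4. The interval lay inside 0.5 for 15 of 19. Rad23b, the substrate transcript with the highest level per kilobase, had a log2 fold change of -0.02 (0.04). Cdkn1b, an inhibitor of the cell cycle, had -0.12 (0.06), and Arc, which regulates AMPA receptor uptake, had 0.26 (0.16). These are levels of RNA, and no protein was measured in these libraries. The mouse homologs of the other genes in the Dup15q region had a median of 0.07 over 14 tested members, with 13 positive, 12 intervals inside 0.5 and none past an unadjusted P value of 0.05. Without mice 8 and 9 their median was -0.02.

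Synaptic programs were close to zero. The genes of synaptic vesicles and release had a median log2 fold change of 0.01 over 45 members, with 41 intervals inside 0.5. Pclo, a giant scaffold of the presynaptic active zone, had 0.32 (standard error 0.12, unadjusted P = 0.0203, edgeR adjusted P = 0.96), and Synpr, a membrane protein of vesicles, had -0.30 (0.12). Vamp2, the vesicle SNARE and the member with the highest level per kilobase, had -0.08 (0.05). Postsynaptic scaffolds and adhesion proteins had a median of 0.01, with 39 of 43 intervals inside 0.5, and Lrrtm4, a synaptic adhesion protein, had the smallest P value at -0.18 (0.07). Both lists hold members on either side of zero and 1 member or none in each direction past an unadjusted P value of 0.05.

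Receptors had slightly higher medians than these lists, and channels did not. The ionotropic glutamate receptors and their auxiliary subunits had a median of 0.05, with 3 of 27 members higher without adjustment, beside 2.48% of all genes. Their median was 0.005 without mouse 9, 0.01 without WT mouse 2 and 0.03 without mice 8 and 9. Neto1, an auxiliary subunit of kainate receptors, had a log2 fold change of 0.44 (standard error 0.14), Shisa6, an auxiliary subunit of AMPA receptors, had 0.35 (0.13), and Grik3 had 0.13 (0.06). Neto1 stood between 61.0 and 78.6 CPM in WT mice and at 78.3, 71.2, 119, 120.3 and 91.7 CPM in Ube3aOE mice 6 to 10, so the highest values were those of mice 8 and 9. Metabotropic glutamate receptors had a median of 0.09, GABA-A receptors and chloride transporters 0.11, sodium, calcium and HCN channels 0.02, and potassium channels 0.01. Without mice 8 and 9, which are described further on, the metabotropic and GABA-A medians were -0.02 and 0.00, and with 1 mouse left out they were as low as 0.02 (without mouse 10) and 0.04 (without mouse 9). In these 4 lists, 2 members were higher and 0 lower without adjustment: Grm5, a glutamate receptor, at 0.24 (0.11), and Kcnn2. The immediate early genes, which neurons transcribe after activity, went both ways. Egr1 had -0.22 (0.09) and Fosb -0.80 (0.29), while Fosl2 had 0.42 (0.15). Fosl2 stood at 71.8 and 71.1 CPM in mice 8 and 9. It stood at 42.8, 44.9 and 45.6 CPM in mice 6, 7 and 10, within the 39.2 to 46.4 CPM of the WT mice. The median of the 23 members was 0.07, 0.00 without WT mouse 2 and -0.02 without mice 8 and 9.

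Of 54 axon guidance cues and receptors tested, 8 were higher and 0 lower at an unadjusted P value under 0.05, beside 2.48% and 1.95% of all genes. The median was 0.08, and 0 passed the adjusted threshold. They were Dcc, the netrin receptor, Robo1, a receptor for Slit proteins, Slit1 and Slit2 themselves, the ephrin receptors Epha3, Epha6 and Epha7, and Sema3e, a secreted semaphorin. Dcc stood at 12.3, 9.34, 11.3, 12.4 and 12.3 CPM in WT mice and at 12.1, 15.4, 24.7, 26.7 and 16.2 CPM in Ube3aOE mice. Epha7 stood at 57.1, 46.5, 60.9, 62.8 and 54.1 CPM in WT mice and at 61.0, 67.2, 63.5, 74.5 and 67.3 CPM in Ube3aOE mice. Both overlapped between the genotypes. Mice 8 and 9 had the highest values for 5 of the 8 genes, namely Dcc, Slit1, Slit2, Epha3 and Epha6. Without these mice the log2 fold change of Dcc was 0.33 in place of 0.72. The median of the axon guidance list was 0.10 without these mice and 0.05 without WT mouse 2. Genes of axon outgrowth had a median of -0.03 and 22 of 24 intervals inside 0.5, with the neurofilament genes Nefm at 0.43 (standard error 0.19) and Nefl at 0.28 (0.12) and Stmn4, a microtubule regulator, at -0.11 (0.05). For Wnt ligands, receptors and modulators the median was 0.14 over 37 members, of which 5 were higher and 0 lower without adjustment: Wnt5a, the receptors Fzd7, Fzd8 and Lrp5, and Rspo2, which amplifies Wnt signals. Rspo2 stood between 10.7 and 12.3 CPM in WT mice and at 11.1, 15.0, 26.7, 21.5 and 11.8 CPM in Ube3aOE mice, again highest in mice 8 and 9. The median of the Wnt list was 0.12 without these mice and 0.09 without Ube3aOE mouse 7.

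Housekeeping and metabolic programs had medians close to zero. Of 74 nuclear genes of oxidative phosphorylation (OXPHOS), 73 had an interval inside 0.25, with a median of 0.01. That share was 40.3% over all genes tested and 60.2% over genes of at least 10 CPM. Atp5g3, a ring subunit of ATP synthase, was the only member whose groups did not overlap, at 345 ± 12.7 CPM (SD, n = 5) in WT and 369 ± 4.65 CPM in Ube3aOE mice, a log2 fold change of 0.10 (standard error 0.04). All Ube3aOE mice lay above all WT mice for 0.314% of all genes tested. Of 78 cytosolic ribosomal proteins, 70 had an interval inside 0.25, with a median of 0.00. Glycolysis had a median of -0.01, cholesterol synthesis and uptake 0.04, heat shock and the unfolded protein response -0.04, p53 targets -0.02, the circadian clock -0.03, and steroid receptors with glucocorticoid-response genes 0.03. The interferon response and the neurotrophins with their receptors lay a little higher, each at 0.14, and at 0.08 each without WT mouse 2. In these 6 lists and the latter pair, the members that were higher without adjustment included Hk2, Srebf2 and Oasl2, and 3 were lower (Arntl2, Esr1 and Gfra2).

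Cortical neurons, glia and progenitors, apart from the Cajal-Retzius cells described further on, had medians between -0.06 and 0.15. Upper-layer neuron markers had a median log2 fold change of -0.05 and deep-layer markers of 0.09, pan-excitatory markers 0.00 and GABAergic markers 0.07. Single mice moved these values: the upper-layer median was 0.07 without mouse 8 and 0.09 without mice 8 and 9, and without WT mouse 3 the deep-layer median was 0.18 and the GABAergic median 0.12. Among them Sox5, a transcription factor of deep-layer neurons, had 0.32 (standard error 0.11), Tle4, a corepressor of the same layers, had 0.16 (0.07), and Cartpt, a peptide gene of upper layers, had -0.47 (0.22). Astrocyte markers had 0.06, microglia 0.06, oligodendrocyte precursors -0.05 and myelin -0.06. Without WT mouse 2 the astrocyte and microglia medians were both 0.00, without WT mouse 5 that of the precursors was 0.07, and without Ube3aOE mouse 10 that of myelin was -0.29. Sox9, a transcription factor of glia and their progenitors, stood at 16.9, 14.1, 18.3, 14.8 and 17.1 CPM in WT mice and at 20.3, 21.5, 22.3, 18.2 and 18.7 CPM in Ube3aOE mice, which overlapped by 1 mouse. Neural progenitor markers had a median of 0.15, with Notch1, the receptor that keeps progenitors from differentiating, at 0.23 (0.09) and its ligand Dll1 at 0.28 (0.12). Markers of dividing cells had a median of 0.10 with 26 of 30 members positive and 23 intervals inside 0.5. Mouse 8 was the highest in both lists, and without it the medians were 0.09 for progenitors and 0.05 for dividing cells. The member with the smallest P value went the other way: Pcna, the sliding clamp of DNA replication, had -0.18 (0.06). It stood at 35.9 to 40.9 CPM in WT mice and at 33.5 to 36.2 CPM in Ube3aOE mice, overlapping in WT mouse 1.

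Vascular and meningeal markers had higher medians. Endothelial markers had 0.12 with 17 of 19 positive, and without WT mouse 2, the lowest mouse, the median was 0.03. Pericyte and smooth muscle markers had 0.20 with 13 of 14 positive, and 0.10 without that mouse. Cdh5, the cadherin of endothelial junctions, had 0.33 (standard error 0.12), and Notch3, a receptor of pericytes, had 0.22 (0.08). All 15 meningeal fibroblast markers were positive, with a median of 0.70, but only 1 interval lay inside 0.5 and 3 members were higher without adjustment: Igfbp2, Foxc1 and Col1a1. Col1a1, a chain of type I collagen, stood at 22.8, 23.1, 33.2, 12.5 and 22.2 CPM in WT mice and at 17.4, 43.5, 63.2, 44.2 and 35.1 CPM in Ube3aOE mice. Ube3aOE mouse 6 thus lay among the WT mice, and the mean level of this list was lowest of all 10 mice in that mouse and highest, at 1.34, in mouse 8 of the same genotype. The summed level of the list was 164 to 278 CPM in WT and 167 to 576 CPM in Ube3aOE mice, and the median was 0.27 without mouse 8 and 0.14 without mice 8 and 9. The brain coverings that each dissection kept were not measured apart from these markers, and their part in the result was not tested.

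**Figure D3:**
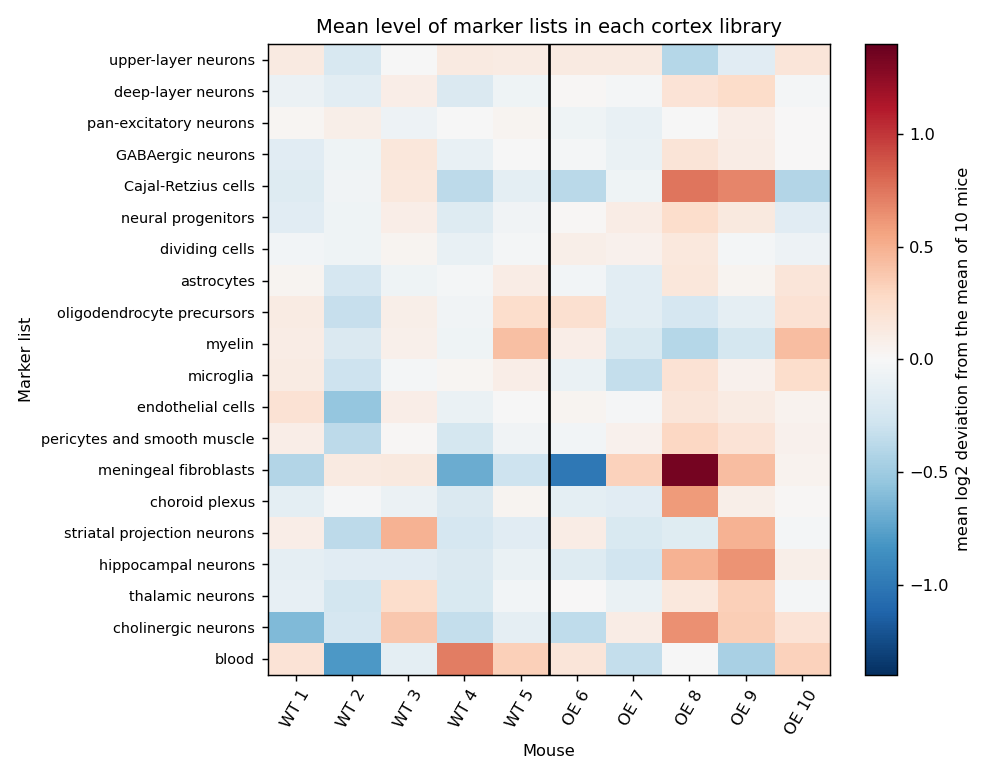
Mean log2 deviation of 20 marker lists from the mean of 10 mice, for each cortex library (columns, WT mice 1 to 5 left of the line and Ube3aOE mice 6 to 10 right of it), with red above and blue below that mean. Mice 8 and 9 stand out in Cajal-Retzius and hippocampal markers, mouse 8 in meningeal markers at 1.34, and WT mouse 2 is the lowest in endothelial markers at -0.54.

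Mice 8 and 9 stood apart in markers of neighbouring tissue and early-born neurons. The list of Cajal-Retzius cells, the early neurons at the brain surface, had a mean level of 0.75 in mouse 8 and 0.68 in mouse 9, against -0.41 to 0.15 in the other 8 mice. Reln, their secreted signal that positions migrating neurons, stood at 147, 109.6, 115, 86.6 and 104 CPM in WT mice and at 121, 111, 176, 189 and 118 CPM in Ube3aOE mice. Markers of hippocampal neurons had a mean level of 0.48 and 0.63 in mice 8 and 9 and of -0.27 to 0.08 in the others. Fibcd1, a marker of hippocampal area CA1, stood at 5.05 to 9.92 CPM in the other 8 mice and at 53.9 and 43.4 CPM in mice 8 and 9. It was the most extreme member: 8 of the 12 tested had a positive log2 fold change and 4 a negative one. Fam163b was among the latter, at -0.13 (standard error 0.05). The summed level of the hippocampal list was 2117 and 2066 CPM in mice 8 and 9 and 1534 to 1967 CPM in the others. The genotype medians of both lists followed: 0.33 for Cajal-Retzius cells and 0.31 for hippocampal neurons with all mice, and -0.13 and 0.03 without mice 8 and 9. Mouse 8 was also the lowest in upper-layer markers, at -0.40, and in myelin genes, also at -0.40, against 0.43 in Ube3aOE mouse 10 and 0.42 in WT mouse 5.

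Choroid plexus markers were low but again highest in mice 8 and 9, summing to 20.5 and 18.8 CPM there and to 8.75 to 12.6 CPM in the other 8 mice, and 5 of 14 had enough counts to be tested. The mean level of mouse 8 was 0.59 for choroid plexus and 0.64 for cholinergic markers. The choroid plexus median was 0.21, and -0.12 without mice 8 and 9. Of the cholinergic markers, 3 of 8 could be tested, with the defining Chat at a mean of 0.128 CPM in WT and 0.0869 CPM in Ube3aOE mice. Striatal projection neuron markers were highest in Ube3aOE mouse 9 and WT mouse 3, at 0.49 and 0.48. Thalamic markers were highest in the same pair, at 0.33 and 0.25. The blood list, mostly haemoglobin genes, ran from -0.80 in WT mouse 2 to 0.72 in WT mouse 4. These differences between mice of 1 genotype were larger than the differences between the genotypes, and how each cortex was cut from its neighbours is not given in the labels.

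The principal components of the 10 libraries separated single mice from the rest. They were computed from log2 CPM of the 500 most variable genes outside the X and Y chromosomes. PC1 held 46.8% of the variance, with scores of 25.5 in mouse 8 and 14.3 in mouse 9 and between -11.3 and 5.51 in the others. Of the variance along PC1, 11.3% lay between the genotypes (two-sided exact permutation test, P = 0.357, adjusted over 2 components). Its largest positive loadings were those of Dsc3, Cbln4, Nts, Htr5b, St18, Sphk1, Ptgds and Fibcd1. Ptgds, a prostaglandin synthase made in the meninges among other places, stood at 1103 CPM in mouse 8, 364 CPM in mouse 9 and 64.9 to 326 CPM in the others. The largest negative loadings on PC1 were those of Ostn, Rxfp2, Plb1, Zfp296, Gm16976, Dmgdh, Slc6a4 and Susd5, each lowest in mouse 8.

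PC2 held 15.6% of the variance and set WT mouse 2 apart, at 17.3 against -5.49 to 5.39 in the others (21.96% between the genotypes, exact permutation P = 0.333, adjusted). Its largest positive loadings were small noncoding RNAs made by RNA polymerase III, namely Rny1, Rny3, Rpph1, Rmrp and Rn7sk, together with Gm24265, Gm26917 and Gm42418. Rn7sk, the RNA that holds the elongation factor P-TEFb inactive, stood at 54.1 CPM in WT mouse 2, 23.4 CPM in WT mouse 1 and 2.06 to 10.5 CPM in the others. Gm42418, a locus that overlaps ribosomal RNA sequence, took 3.95% of the counts of WT mouse 2. The log2 fold change of Rn7sk was -2.53 (standard error 0.79) and did not pass (edgeR, adjusted P = 0.96). The largest negative loadings on PC2 were those of Galnt12, Asb2, Scn4b, Fam124b, Ankrd63, Lingo4, Dleu2 and Slc35d3, each at its minimum in WT mouse 2.

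**Figure D4:**
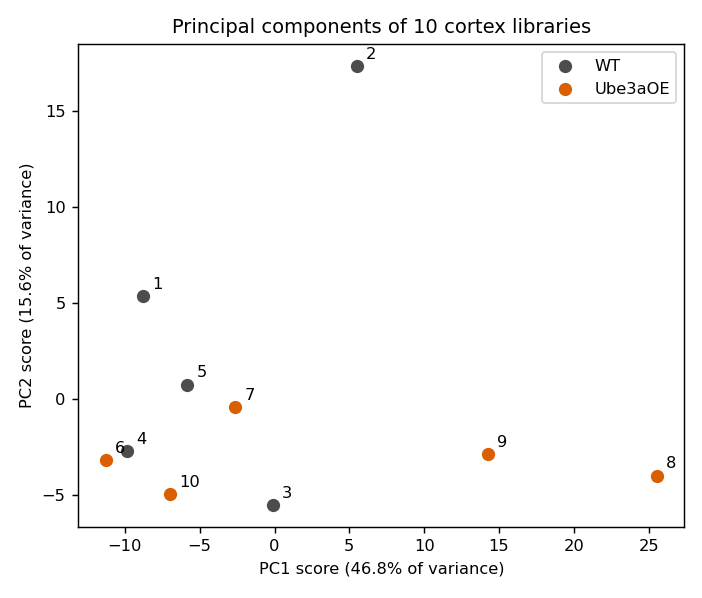
Scores of the 10 cortex libraries on PC1 (46.8% of the variance) and PC2 (15.6%), labelled by mouse number. Ube3aOE mice 8 and 9 lie to the right at 25.5 and 14.3, WT mouse 2 lies at the top at 17.3, and the other mice of both genotypes lie together.

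The mitochondrial genome gave the list medians farthest below zero. The ribosomal RNAs mt-Rnr1 (12S) and mt-Rnr2 (16S) had log2 fold changes of -0.69 (standard error 0.17) and -0.78 (0.23), and in both every Ube3aOE mouse lay below every WT mouse. The 16S rRNA stood at 821, 1495, 721, 731 and 595 CPM in WT mice and at 496, 566, 527, 468 and 476 CPM in Ube3aOE mice. WT mouse 2 was the highest by far, and without it the median of the pair was -0.50. Neither gene passed (edgeR, adjusted P = 0.96 for both). The mitochondrial mRNAs, which encode OXPHOS subunits, had a median of -0.23 over 10 tested members, 9 of them negative and none past an unadjusted P value of 0.05. Their summed level was 8602 to 14010 CPM in WT and 7373 to 11660 CPM in Ube3aOE mice, so the genotypes overlapped, and no interval lay inside 0.5. The nuclear OXPHOS genes had no such shift (0.01).

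Copies of mitochondrial sequence in the nuclear genome filled much of the lower end of the ranking. Of the 15 genes with the smallest P values among the lower ones, 6 are annotated pseudogenes that share sequence with a mitochondrial gene, and mt-Rnr1, encoded by the mitochondrial genome itself, is another of the 15. On chromosome 1, Gm28661, Gm10925 and Gm28439 match mt-Co2, mt-Atp6 and mt-Nd4 in 100% of their stretches of 50 bases, Gm28438 matches mt-Nd3 in 99.0% and Gm29216 matches mt-Co1 in 97.1%. Gm13340 on chromosome 2 matches mt-Co1 in 27.5%. Gm28437, which lies beside them on chromosome 1 and matches mt-Co3 in 100%, was outside the 15 and had a log2 fold change of -0.53 (standard error 0.15). The start of Gm29216 (chr1:24616138-24616197, minus strand, GRCm38) and the matching stretch of mt-Co1 (bases 6381 to 6440 of the mitochondrial genome, plus strand), both from GENCODE M21 transcripts, are printed to show how little tells the sources apart. Capitals mark the bases that differ.
Gm29216: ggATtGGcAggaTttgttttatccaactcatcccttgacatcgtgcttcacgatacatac
mt-Co1: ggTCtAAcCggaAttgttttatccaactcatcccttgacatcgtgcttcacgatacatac
All 6 differences in the 492 bases of Gm29216 lie in this stretch, so reads from the rest of it fit both places equally. Reads that aligned to more than 1 place were left out of the counts. The CPM values of the copies and of the matching mitochondrial genes therefore do not measure their full levels.

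These copies rank among the 15 by their P values in this same comparison, so their shared direction is a description. Gm29216 stood at 47.3, 43.6, 57.6, 78.8 and 57.5 CPM in WT mice and at 33.7, 33.5, 40.3, 33.6 and 35.6 CPM in Ube3aOE mice. Gm28661 stood at 39.9, 37.5, 46.2, 59.8 and 43.6 CPM in WT mice and at 26.8, 31.3, 33.6, 28.1 and 27.8 CPM in Ube3aOE mice. In both the groups did not overlap and WT mouse 4 was the highest, while WT mouse 2, the highest in the rRNAs, was the lowest WT mouse. Their log2 fold changes were -0.69 (standard error 0.14) and -0.62 (0.12), and in edgeR neither passed (adjusted P = 0.96 and 0.888), although DESeq2 called both and Gm10925 as well (adjusted P = 0.00418, 0.00368 and 0.0306). The mitochondrial mt-Co2, whose sequence Gm28661 shares, was counted at only 2.24 CPM in WT mice on average, where mt-Co1 was counted at 3045 CPM. In hippocampus the same genes had log2 fold changes of 0.08 (Gm29216) and -0.01 (Gm28661), and the difference between the tissues did not pass (edgeR's interaction test, adjusted P = 0.997 for both). That test did not pair the tissues of a mouse. With the mouse as a block, its adjusted P value was 0.797 for both.

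**Figure D5:**
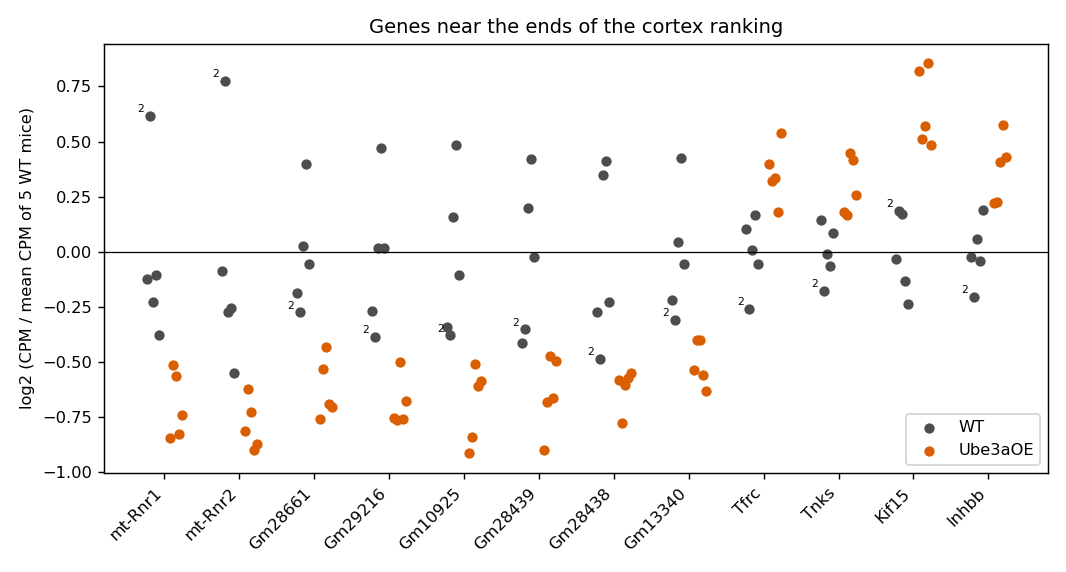
CPM of 12 genes in each cortex library, as log2 of the ratio to the mean of the 5 WT mice (grey WT, orange Ube3aOE, WT mouse 2 marked). The mitochondrial rRNAs and the copies lie below the WT mice in all 5 Ube3aOE mice, with WT mouse 2 at the top of the WT mice for the rRNAs and near their bottom for the copies, and Tfrc, Tnks, Kif15 and Inhbb lie above.

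Apart from Ube3a, 14 genes made up the 15 with the smallest P values among the higher ones. All had an adjusted P value of 0.96 in edgeR. In 10 of the 14 the groups did not overlap, where all Ube3aOE mice lay above all WT mice for 0.314% of all genes tested. The 14 were picked by their P values in this same comparison, so this count is a description. Tfrc, the transferrin receptor that brings iron into cells, stood at 107, 83.3, 100.3, 112 and 96.0 CPM in WT mice and at 131, 124, 126, 113 and 145 CPM in Ube3aOE mice. Its log2 fold change was 0.36 (standard error 0.08), with 0.20 (0.09) in hippocampus. Tnks, a poly-ADP-ribosyltransferase that acts in Wnt signalling and at telomeres, had 0.30 (0.07) in cortex and 0.18 in hippocampus. Kif15, a kinesin of the mitotic spindle, had 0.66 (0.16), at 1.86 ± 0.239 CPM (SD, n = 5) in WT and 2.94 ± 0.364 CPM in Ube3aOE mice, but 0.09 in hippocampus. These 3 genes did not overlap between the genotypes, and their differences were small against those of Ube3a.

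The others were Inhbb, which encodes an activin subunit (0.38), Map3k14, a kinase of the noncanonical NF-kappaB pathway (0.47), Cd44, a hyaluronan receptor (0.35), Cebpa, a transcription factor (0.82), Slc8a1, a sodium-calcium exchanger (0.31), St6galnac3, a sialyltransferase (0.33), and Dcc and Sox9 from above, with Gm2115, 1190005I06Rik and Spcs2-ps. Without mice 8 and 9 the log2 fold change of Cebpa was 0.46 and that of Gm2115 was 0.39 in place of 0.87, while that of Tfrc was 0.42 and that of Kif15 was 0.62. That of Tnks was 0.20 without these mice, in place of 0.30. With the trend on transcript length and GC content removed, Tnks had 0.22 and Slc8a1 had 0.20 in place of 0.31. Among the lower genes without mitochondrial sequence were Luc7l3 and Prpf3, which act in RNA splicing, at -0.35 (standard error 0.08) and -0.28 (0.07). Deaf1, a transcription factor, had -0.25 (0.06), and Scg2, a secretogranin of dense-core vesicles, had -0.25 (0.06) in cortex and 0.32 in hippocampus. Zbed4 had -0.59 (0.16), and Gm42664, Gm27000 and Gm14108 completed the 15. In hippocampus, 11 of the 14 higher genes and 8 of the 15 lower ones had the same sign, and of these only Tfrc had an unadjusted P value under 0.05. For no gene of these sets did the difference between the tissues pass (smallest adjusted P = 0.997, edgeR's interaction test). Of all 15661 genes in that test 0 passed, and 590 of the 15661 had an unadjusted P value under 0.05. The tissues of a mouse were not paired there, and with the mouse as a block 0 passed as well.

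The median log2 fold change of a chromosome lay between -0.01 and 0.02 for the autosomes and the X chromosome, and at -0.27 for the 16 tested genes of the mitochondrial genome. Chromosome 7, which holds the endogenous Ube3a, had a median of 0.00 over 1152 genes, with 31 higher and 22 lower without adjustment. The study's text maps the transgene insertions of its lines C and E to chromosome 3. Chromosome 3 had a median of 0.01 over 760 genes, with 21 higher and 24 lower. Over all genes tested, 2.48% were higher and 1.95% lower.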

How the data were processed

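RNA of 10 P7 cortices was measured by stranded mRNA sequencing, 1 library per mouse. The authors deposited raw read counts per gene for each library. Per the submitters' processing notes, HISAT2 2.1.0, HTSeq 0.11.2 and GRCm38 (mm10) were used, while their settings, including strand, are not given in the sources used here. Reads that aligned to more than 1 place (10.7% to 13.7%), outside genes (4.88% to 7.12%), to more than 1 gene (0.756% to 0.870%) or not at all (2.97% to 8.66%) were left out of totals and tests. Gene positions, lengths and transcripts came from GENCODE M21, which held 98.9% of the gene identifiers.

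The counts were fitted with edgeR 4.0.16 under R 4.3.3 (TMM factors, filterByExpr, robust quasi-likelihood F test, no covariate, Benjamini-Hochberg adjustment over all genes tested). Limma 3.58.1, DESeq2 1.42.0 and sva 3.50.0 served as alternatives, with Python 3.11.15 for lists and figures. The biological coefficient of variation was 12.1%, so the spread between mice, and not counting error, limited abundant genes. The labels number the mice, so replicates are separate animals. Standard errors and 95% intervals came from the same fit, which was tested on simulated data. Gene lists were described without a test.

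The comparison, the lists and the rules for naming genes were chosen with earlier results of these data known. Named are Ube3a, the 15 genes with the smallest P values in each direction, the members of each list with the smallest P values (at most 4) or the highest level per kilobase, the 8 largest loadings on either side of both components, and the sex-linked genes. Other genes were chosen after their values were seen (Tbr1, Herc1, Cdkn1b, Arc, Epha3, Epha6, Slit1, Slit2, Sema3e, Rspo2, Ptgds, Chat, mt-Co1, mt-Co2 and further list members). 2 names of the lists were not matched. No library was left out.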

Additional observations from a re-analysis of the deposited data

Results flagged for a closer look

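Of 118 comparisons of the highest or lowest library with the others of its group, over library measures, Ube3a, both component scores and the 48 lists, 5 exceeded a gap of 0.71 of the group's range, where chance gives about 1 in 20, or 5.9. The number is therefore no larger than chance gives, but 4 of the 5 concern WT mouse 2. Its share of reads on genes was 69.7% (77.3% to 78.8% in the other WT mice), its share of reads not aligned was 8.66% (3.87% to 5.13%), and Gm42418 took 3.95% of its counts (0.235% to 0.940%). Its circadian clock genes had a mean level of -0.22, against 0.04 to 0.12 in the other WT mice. Heat shock and unfolded protein response genes had a mean level of 0.10 in Ube3aOE mouse 6, against -0.07 to -0.04 in the other Ube3aOE mice. The cause of these values was not tested.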

How the results depend on the processing

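Under DESeq2's test 4 genes passed the adjusted threshold, Ube3a, Gm28661, Gm29216 and Gm10925, and in every other setting, each mouse left out included, the count was 1 and the gene was Ube3a. The alternatives were limma voom, no filter on low counts, DESeq2's size factors, the labelled sex and all 20 libraries. Others were the length and GC trend removed and 1 surrogate variable. Chosen after seeing the data were no mice 3 and 5, no mice 8 and 9, and no mitochondrial or rRNA-linked genes. The counts of mice 3 and 5 go against the labelled sex, and sex as read from the counts was not fitted. With each mouse left out in turn, the log2 fold change of Ube3a ranged from 1.24 to 1.37, its percentage of WT from 236.5% to 258% and the genes with an interval inside 0.5 from 10517 to 11140. Genes with an unadjusted P value under 0.05, 371 higher and 292 lower with all mice, were 183 and 229 without mouse 8, 215 and 199 without mouse 9, 218 and 220 without mouse 4, and 653 and 491 without mouse 6. The share of PC1 variance between genotypes then ranged from 0.519% to 25.3% and that of PC2 from 0.252% (without WT mouse 2) to 38.2% (without WT mouse 3, exact permutation test, adjusted P = 0.0476, the only such value under 0.05). Without mice 8 and 9 the log2 fold change of Fibcd1 reversed to -0.017. With 1 surrogate variable the median of meningeal markers was 0.15, of Cajal-Retzius markers -0.01 and of hippocampal markers 0.13.

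No paired analysis was possible within cortex because WT mice are numbered 1 to 5 and Ube3aOE mice 6 to 10. For the interaction with tissue, where cortex and hippocampus of a mouse pair, the mouse as a block left the count at 0. With this block, 944 of 15661 genes had an unadjusted P value under 0.05. The share of intervals inside 0.5 was larger among genes of at least 10 CPM (93.9%) than among all genes (73.8%).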
